A study of Panax ginseng with 12 samples.

Results

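Chitinases, beta-1,3-glucanases, thaumatin-like proteins and other pathogenesis-related (PR) proteins were followed in embryogenic calli of Panax ginseng kept in the cold. The members are the 66 assembled genes, of 44953 in the table, whose Swiss-Prot hit is described as a chitinase, a glucan endo-1,3-beta-glucosidase, a thaumatin or osmotin protein, a pathogenesis-related protein or a major allergen. They comprise 15 chitinases, 30 glucanases, 9 thaumatin-like and osmotin genes (PR-5), 9 genes of the Bet v 1 type (PR-10) and 3 others (PR-1 and PR-4). Such a callus is undifferentiated tissue in culture from which somatic embryos can arise. The cold calli were kept at 5 °C and the control calli at 20 °C, and total RNA was sequenced on day 2, 4 or 6, with 2 libraries for each temperature and day, which gave 6 groups and 12 libraries. The labels name no cultivar, callus line or culture, and nothing says that the libraries of a group are separate cultures, so p-values reflect the spread among these libraries alone, which may be technical. The comparison at each day asked which genes differed between 5 °C and 20 °C calli of the same day.

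PR proteins are small, mostly secreted proteins that plants make when microbes attack and, in many species, under cold. Chitinases cut the chitin of fungal walls, and beta-1,3-glucanases cut the beta-1,3-glucan of fungal walls and the callose of the plant's own walls. Thaumatin-like proteins and osmotins disturb fungal membranes, PR-1 proteins bind sterols, PR-4 proteins bind chitin, and PR-10 proteins are intracellular and carry small hydrophobic ligands. In winter rye, particular chitinases, glucanases and thaumatin-like proteins of the cold-acclimated leaf also bind ice and slow its growth. Ice binding was not measured here, and these classes are called the rye antifreeze classes in what follows only to set their 54 members beside the other 12.

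The table also lists protein domains. All 9 PR-10 members carried the Bet v 1 domain, 3 of them by construction, since genes whose hit is the parsley "Pathogenesis-related protein 2" were placed in PR-10 for that domain and not with the PR-2 glucanases. All 9 PR-5 members carried the thaumatin domain. Of the chitinases, 9 carried the glycoside hydrolase 19 domain and 6 the glycoside hydrolase 18 domain. A single domain label per gene was read, the last one given, so any other domain of the same gene was not counted. For the glucanases that label was the glycoside hydrolase 17 domain in 24 and the X8 domain, which binds callose, in 4, while 2 listed none. All 30 glucanases had the gene ontology term for anchorage in the plasma membrane. The 66 genes were 201 to 3682 bases long (median 1260) and shared 41 distinct Swiss-Prot hits. A set of 9 assembly clusters held more than 1 member, 18 members in all, and how reads were divided between genes of a cluster is unknown.

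Values were in TPM, a relative transcript abundance that is scaled for length and so can be compared between genes, and all 66 members passed the low filter. Library totals lay between 873298 and 929555 TPM, and no read counts are held, so depth is unknown. On the second principal component cold day 2 replicate 3 was far from the rest (138, against -65.2 to 71.1 in the other 11 libraries), and cold day 6 replicate 3 was the cold library nearest to the controls on the first (15.4, against 69.7 to 136 in the other 5). These are the 2 cold libraries that stood apart, and calls were also made without them. Among the controls, the second component was 28.1 to 71.1 in day 2 replicate 1, day 4 replicate 1 and day 6 replicate 3, and -65.2 to 2.43 in the other 3. Differences are cold minus control of log2(TPM + 1), so those of low genes come out too small. The members differed widely in level, with 7 above 100 TPM on average over the 12 libraries, 16 below 5 TPM and a median of 9.34 TPM. The PR-4 gene TRINITY_DN25723_c1_g2 was the most abundant, at 1173 TPM on average, followed by a PR-10 gene (TRINITY_DN22784_c1_g3) at 825 TPM and an osmotin gene (TRINITY_DN14464_c0_g2) at 457 TPM.

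Cold was accompanied by changes in both directions. For the mean of the 3 daily differences, 10 members rose, 9 fell and 47 were not called (limma, Benjamini-Hochberg adjusted p under 0.05). That is 28.8% of the members, beside 23.3% of all 44600 genes tested, so the share called was near the background. Of all genes 11.3% were called higher and 12.0% lower. The median log2 difference was -0.19 over the members and -0.05 over all genes. A pair of the rising members, CHTB4 and a PR2 gene, passed the low filter through the cold libraries alone and so had to be higher there, and 8 of the other 64 members rose. A set of 3 members passed through the control libraries alone, which favours lower values in cold, and none of them was called. After median ratio scaling between libraries the split was 12 higher and 7 lower. Without cold day 6 replicate 2 the count dropped to 12 (6 higher), the number called lower fell to 5 without control day 4 replicate 2, and 14 were called without the 2 cold libraries that stood apart, where 18.8% of all genes were called. In bulk RNA, fewer cells of a type and less RNA per cell cannot be told apart.

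**Figure D1:**
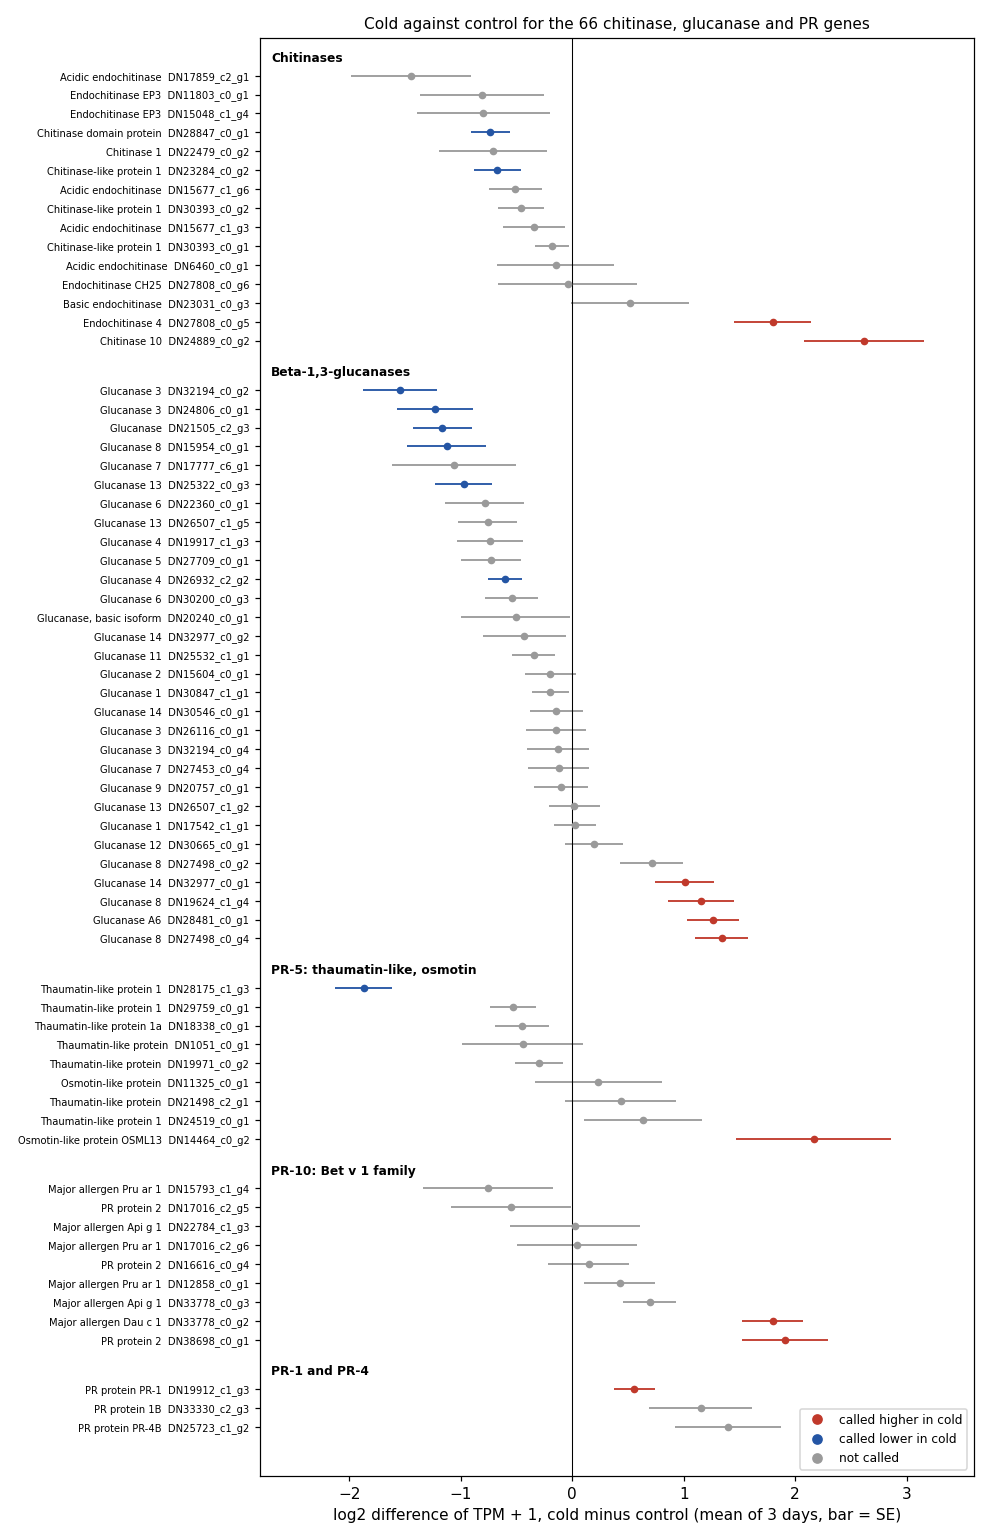
Log2 difference of TPM + 1 between cold and control for the 66 members, as the mean of the 3 days with its standard error, by family and ordered by value. Red points are the 10 genes called higher, blue points the 9 called lower and grey points the 47 not called. The red and blue points lie side by side in the chitinases, the glucanases and PR-5, whereas no PR-10, PR-1 or PR-4 gene is blue.

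Chitinases split into 2 that rose, 2 that fell and 11 that were not called, or 26.7% called beside 23.3% of all genes. The gene with the largest rise of all members was Cht10 (TRINITY_DN24889_c0_g2), whose hit is chitinase 10 of rice, of the glycoside hydrolase 19 type. In control it stood at 9.83 and 34.6 TPM on day 2, 7.97 and 16.1 TPM on day 4, and 9.26 and 3.03 TPM on day 6. In cold it stood at 210 and 25.4 TPM on day 2, 63.7 and 96.5 TPM on day 4, and 115 and 31.2 TPM on day 6. Each cold library lay above the controls of its own day except cold day 2 replicate 3, at 25.4 TPM, which lay below control day 2 replicate 3. On the log2 scale the difference was 2.62 (SE 0.54; adjusted p by limma with Benjamini-Hochberg = 0.0075), and 3.42 without the 2 cold libraries that stood apart.

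The other chitinase that rose, CHTB4 (TRINITY_DN27808_c0_g5), was annotated as a class 1 chitinase of Panax ginseng, a class that in other plants carries a chitin-binding domain. It was low in every library and passed the filter through cold alone, at 0.12 to 0.97 TPM in control (median 0.57) and at 1.03 to 11.8 TPM in cold (median 4.59). The arms did not overlap, and cold was highest on day 2 and day 4 (3.30, 11.8, 9.70 and 5.88 TPM) and close to control on day 6 (1.56 and 1.03 TPM). Cold minus control was 1.80 in log2 (SE 0.35; adjusted p by limma with Benjamini-Hochberg = 0.0057).

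A pair of class 1 chitinase genes, by the same annotation, was far more abundant and was not called for the mean of the days. The basic endochitinase CHIT1B (TRINITY_DN23031_c0_g3) stood at 72.7 and 53.4 TPM in control on day 2, at 8.0 and 3.52 TPM on day 4, and at 48.6 and 80.1 TPM on day 6. In cold it stood at 9.95 and 139 TPM on day 2, at 134 and 43.4 TPM on day 4, and at 22.3 and 25.04 TPM on day 6. Both cold libraries were thus above both controls on day 4 and below both on day 6, while on day 2 they lay on either side. The endochitinase CH25 gene (TRINITY_DN27808_c0_g6), in the same assembly cluster as CHTB4, followed the same order, with control at 127 and 99.4 TPM on day 2, 13.5 and 5.74 TPM on day 4, and 106 and 128 TPM on day 6. In cold it was at 7.99 and 193 TPM on day 2, 179 and 48.3 TPM on day 4, and 22.3 and 40.1 TPM on day 6. On day 4 CHIT1B was higher in cold by 3.6 on the log2 scale (SE 0.92; adjusted p by limma with Benjamini-Hochberg = 0.038), and the CH25 gene stood at 3.25 (SE 1.08; adjusted p by limma with Benjamini-Hochberg = 0.082). On day 6 their log2 differences were -1.37 (SE 0.92) and -1.93 (SE 1.08). These genes had the second and the third lowest p of all members for a difference that varied with the day, and neither passed the adjustment (adjusted p by limma with Benjamini-Hochberg = 0.35 and 0.40). Over the days together CHIT1B stood at 0.51 (SE 0.53). It was called, at 1.13, without cold day 2 replicate 1 (adjusted p = 0.039), and stood at -0.1 without cold day 2 replicate 3 and at -0.13 without the 2 cold libraries that stood apart. The 3 class 1 genes may share reads, so how counts divide among them is uncertain.

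Among the chitinases that fell, CTL1 (chitinase-like protein 1) acts in Arabidopsis in the assembly of cellulose. Its most abundant gene, TRINITY_DN23284_c0_g2, was the most expressed of the chitinases, at 150, 150, 139, 187, 184 and 182 TPM in the control libraries and 126, 58.1, 136, 96.9, 118 and 102 TPM in the cold ones. The arms did not overlap, and cold day 2 replicate 3 was the lowest. The log2 difference came to -0.67 (SE 0.21; adjusted p by limma with Benjamini-Hochberg = 0.041), a call that held in only 1 of the 12 fits without 1 library, with adjusted p up to 0.12, and not in the fit with the replicate number as a block (adjusted p = 0.055). The other CTL1 genes, TRINITY_DN30393_c0_g2 and TRINITY_DN30393_c0_g1, were of like abundance and not called, at -0.46 (SE 0.20) and -0.18 (SE 0.15). A gene similar to the animal chitinase domain-containing protein Chid1 (TRINITY_DN28847_c0_g1) fell from 13.2 to 18.4 TPM in control (median 14.9) to 7.0 to 10.04 TPM in cold (median 9.0), with no overlap. On the log2 scale the difference was -0.74 (SE 0.18; adjusted p by limma with Benjamini-Hochberg = 0.014), with values between -0.67 and -0.82 on the 3 days.

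By domain, 2 of 9 glycoside hydrolase 19 genes rose and 1 fell, and none of 6 glycoside hydrolase 18 genes rose and 1 fell. The shares called were 33.3% and 16.7%, beside 23.3% of all genes. All 6 glycoside hydrolase 18 genes had negative log2 differences, beside 23431 of all 44600 genes. The acidic endochitinase gene TRINITY_DN17859_c2_g1 of that type stood at -1.44 (SE 0.54) and was not called (adjusted p by limma with Benjamini-Hochberg = 0.07), with 0.24 to 12.4 TPM in control and 0.19 to 5.62 TPM in cold. Both genes for endochitinase EP3, a class 4 chitinase whose carrot relative is known from embryogenic cultures, were high in only 2 control libraries. TRINITY_DN11803_c0_g1 reached 8.30 TPM in control day 2 replicate 3 and 7.15 TPM in control day 6 replicate 2 and was at 0.32 to 0.87 TPM in the other 10. TRINITY_DN15048_c1_g4 reached 2.81 and 8.94 TPM in the same 2 libraries and was at 0 to 0.77 TPM elsewhere. Both EP3 genes passed the low filter through these 2 control libraries alone, so their lower level in cold follows from the filter.

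**Figure D2:**
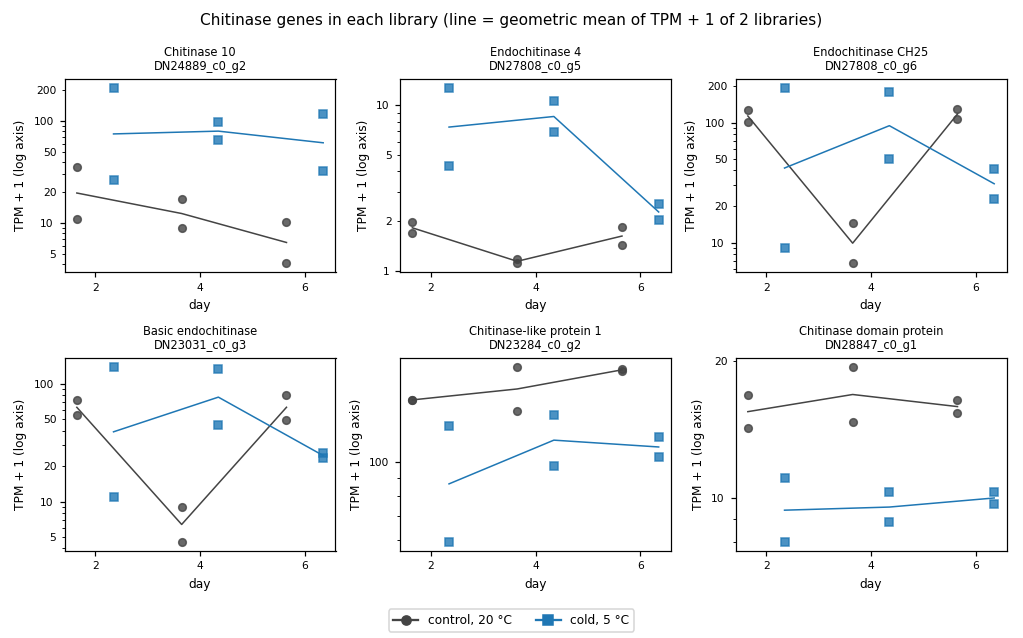
TPM + 1 on a log axis for 6 chitinase genes in each of the 12 libraries by day, with control in grey circles and cold in blue squares, set slightly apart sideways, and lines through the geometric mean of the 2 libraries. Chitinase 10 and endochitinase 4 are higher in cold, chitinase-like protein 1 and the chitinase domain gene are lower, and the CH25 and basic endochitinase genes cross, with cold above control on day 4 and below it on day 6.

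Among the glucanases 4 genes rose and 6 fell, with 20 not called. The share called was 33.3%, beside 23.3% of all genes (11.3% higher and 12.0% lower). A total of 22 of the 30 had a negative log2 difference (median -0.27), beside 23431 of all 44600 genes (median -0.05). The rising genes had 3 different hits. The gene with the largest rise was a glucanase 8 gene (TRINITY_DN27498_c0_g4), whose Arabidopsis counterpart At1g64760 is an atypical glucanase needed for the shape of tissues. It stood at 23.4 and 37.5 TPM on day 2, 30.0 and 48.5 TPM on day 4, and 19.5 and 17.1 TPM on day 6 in control. In cold it stood at 92.3 and 39.8 TPM, 96.8 and 141 TPM, and 50.3 and 51.2 TPM on these days, above both controls of each day. Cold minus control was 1.34 in log2 (SE 0.24; adjusted p by limma with Benjamini-Hochberg = 0.004).

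The 4 genes with the glucanase 8 hit did not move as one. TRINITY_DN19624_c1_g4 rose by 1.16 on the log2 scale (SE 0.30), from a median of 10.3 to 26.3 TPM, and lost its call when either cold day 4 replicate 2 or cold day 6 replicate 2 was removed (adjusted p = 0.06 each). TRINITY_DN27498_c0_g2 was not called, at 0.71 (SE 0.28; adjusted p by limma with Benjamini-Hochberg = 0.089). TRINITY_DN15954_c0_g1 fell by 1.13 on the log2 scale (SE 0.36; adjusted p by limma with Benjamini-Hochberg = 0.042), from 3.04 to 14.9 TPM in control (median 6.43) to 1.08 to 5.81 TPM in cold (median 2.14). That call held in 4 of the 12 fits without 1 library, with adjusted p up to 0.12 without cold day 6 replicate 2. Summed over the 4 genes, the log2 difference was 0.96 (adjusted p by limma with Benjamini-Hochberg = 0.017).

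The gene for A6 (TRINITY_DN28481_c0_g1), a glucanase known from the anther, where it frees pollen cells from callose, also rose. It was at 11.6 to 20.8 TPM in control (median 15.3) and at 24.0 to 52.0 TPM in cold (median 41.4), and the arms did not overlap. Its log2 differences were alike on the 3 days, at 1.42, 1.21 and 1.16, with a mean of 1.26 (SE 0.23; adjusted p by limma with Benjamini-Hochberg = 0.0046). The most abundant glucanase, a glucanase 14 gene (TRINITY_DN32977_c0_g1), went from 18.6 to 75.5 TPM in control (median 41.8) to 44.8 to 138 TPM in cold (median 97.4). The log2 difference came to 1.01 (SE 0.26; adjusted p by limma with Benjamini-Hochberg = 0.02), a call lost on removing cold day 4 replicate 1 (adjusted p = 0.057), cold day 6 replicate 2 (0.061) or both cold libraries that stood apart (0.056).

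Among the falling glucanases, 2 genes with the glucanase 3 hit moved in parallel. TRINITY_DN32194_c0_g2 was at 10.3 to 20.9 TPM in control (median 14.6), and in cold at 6.85 and 6.67 TPM on day 2, 1.62 and 1.79 TPM on day 4, and 2.15 and 13.97 TPM on day 6. TRINITY_DN24806_c0_g1, which lists the X8 domain, was at 9.21 to 18.5 TPM in control (median 12.5), and in cold at 7.75 and 7.35 TPM, 1.86 and 2.99 TPM, and 2.19 and 14.4 TPM on these days. In both, the high day 6 value was that of cold day 6 replicate 3, above both day 6 controls and within the range of all 6 controls. The log2 differences were -1.55 (SE 0.33; adjusted p by limma with Benjamini-Hochberg = 0.0092) and -1.23 (SE 0.34; adjusted p by limma with Benjamini-Hochberg = 0.024). Without the 2 cold libraries that stood apart they were -1.92 and -1.60. The second call was lost in 4 of the 12 fits, on removing either day 4 control, cold day 2 replicate 3 or cold day 4 replicate 1, with adjusted p up to 0.065. The other genes of this hit, TRINITY_DN32194_c0_g4 (-0.13, SE 0.28) and TRINITY_DN26116_c0_g1 (-0.14, SE 0.27), were not called, and all 4 summed were not called either (adjusted p by limma with Benjamini-Hochberg = 0.055).

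The remaining glucanases that fell were GLC1 (TRINITY_DN21505_c2_g3) by 1.16, a glucanase 13 gene (TRINITY_DN25322_c0_g3) by 0.98 and a glucanase 4 gene (TRINITY_DN26932_c2_g2) by 0.60 on the log2 scale. GLC1 went from a median of 12.7 TPM in control to 4.19 TPM in cold. The glucanase 4 gene had a median of 19.4 TPM in control and 11.9 TPM in cold and did not overlap between the arms. The glucanase 13 gene had cold values of 32.5 and 45.8 TPM on day 2, inside the control range of 19.0 to 58.8 TPM, and of 4.80 to 17.7 TPM on day 4 and day 6, below it. It was the only member of the 19 called whose daily differences did not all share the sign of the mean. Its adjusted p was 0.054 to 0.061 without control day 4 replicate 2, cold day 4 replicate 1 or cold day 6 replicate 2, and that of the glucanase 4 gene was 0.053 without cold day 4 replicate 2 (limma, Benjamini-Hochberg). The basic glucanase GNS1 (TRINITY_DN20240_c0_g1), of the kind known as PR-2, was at 0.42 to 8.88 TPM in control and 0.54 to 3.26 TPM in cold and was not called (log2 difference -0.51, SE 0.49).

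**Figure D3:**
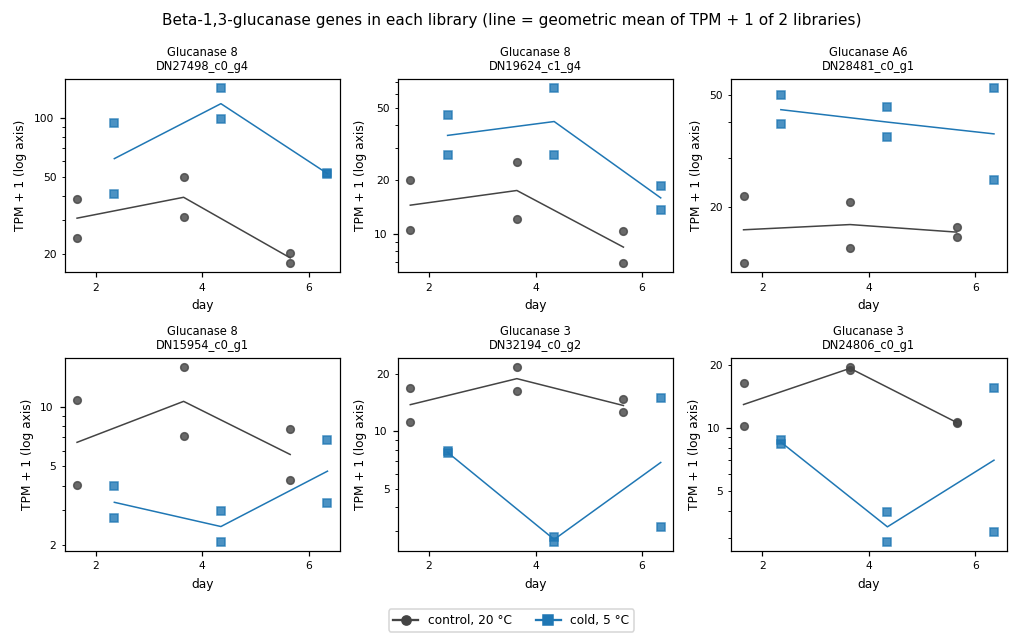
TPM + 1 on a log axis for 6 glucanase genes in each of the 12 libraries by day, with control in grey circles and cold in blue squares, set slightly apart sideways, and lines through the geometric mean of the 2 libraries. In the upper row cold lies above control on every day. In the lower row the cold line lies below the control line, although cold day 6 replicate 3 is above both controls of its day in both glucanase 3 panels.

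In PR-5, 1 gene rose, 1 fell and 7 were not called, or 22.2% called beside 23.3% of all genes. The member that fell, a TL1 gene (TRINITY_DN28175_c1_g3) for thaumatin-like protein 1, had the lowest adjusted p of all members. It stood at 16.3, 14.1, 16.8, 13.9, 11.9 and 4.36 TPM in the control libraries of day 2, 4 and 6, and at 4.35, 3.80, 1.25, 1.86, 1.88 and 3.24 TPM in the cold ones. The arms touched but did not overlap, because control day 6 replicate 3 was low. On the log2 scale the difference was -1.87 (SE 0.26; adjusted p by limma with Benjamini-Hochberg = 0.0015). Its assembly cluster also holds a gene for protopanaxadiol 6-hydroxylase (TRINITY_DN28175_c1_g2), an enzyme of ginsenoside synthesis, which averaged 443 TPM in the controls against 267 TPM in cold and was not called (log2 difference -0.73, SE 0.29; adjusted p by limma with Benjamini-Hochberg = 0.087).

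The other 3 TL1 genes were not called. TRINITY_DN29759_c0_g1, the most abundant, was at 62.7 to 130 TPM in control and 43.7 to 96.5 TPM in cold (log2 difference -0.53, SE 0.21), and was called without control day 2 replicate 1 (-0.68, adjusted p = 0.037). TRINITY_DN18338_c0_g1, with the apple thaumatin-like protein 1a as its hit, stood at -0.45 (SE 0.25). TRINITY_DN24519_c0_g1 stood at 0.63 (SE 0.53), and its highest control value, 25.4 TPM in control day 2 replicate 1, lay above the 20.5 TPM of its highest cold library.

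The member that rose was an osmotin-like gene (TRINITY_DN14464_c0_g2) whose hit is OSML13 of the wild potato Solanum commersonii. In control it stood at 1193 and 59.8 TPM on day 2, 138 and 106 TPM on day 4, and 21.8 and 234 TPM on day 6. In cold it stood at 719 and 388 TPM on day 2, 800 and 701 TPM on day 4, and 443 and 680 TPM on day 6. The cold libraries lay between 388 and 800 TPM, and each was above 5 of the 6 controls. The exception was control day 2 replicate 1, which was higher than every cold library. Cold minus control was 2.17 in log2 (SE 0.70; adjusted p by limma with Benjamini-Hochberg = 0.044), and the call held in 2 of the 12 fits without 1 library, with adjusted p up to 0.10 without control day 6 replicate 2. The value was 1.45 without control day 2 replicate 3 (adjusted p = 0.069), 2.88 without control day 2 replicate 1 and 1.61 without control day 6 replicate 2, and it was not called without the 2 cold libraries that stood apart (adjusted p = 0.13). The other osmotin-like gene (TRINITY_DN11325_c0_g1) was likewise highest in control day 2 replicate 1, at 128 TPM against 1.42 to 24.4 TPM in the other controls and 5.50 to 20.3 TPM in cold, and was not called (log2 difference 0.23, SE 0.57).

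In PR-10, 2 genes rose, none fell and 7 were not called, or 22.2% called beside 23.3% of all genes. The gene for Dau c 1 (TRINITY_DN33778_c0_g2), named for a carrot allergen, was at 3.71 and 1.57 TPM on day 2, 1.31 and 2.48 TPM on day 4, and 1.75 and 4.58 TPM on day 6 in control. In cold it was at 22.9 and 15.0 TPM, 10.3 and 15.2 TPM, and 5.68 and 4.66 TPM on these days. The arms did not overlap, and on day 6 the cold values lay just above the highest control. The log2 difference came to 1.80 (SE 0.28; adjusted p by limma with Benjamini-Hochberg = 0.0023), with 2.49, 2.25 and 0.65 on the 3 days. This was the only member called on day 2 (adjusted p by limma with Benjamini-Hochberg = 0.03), where 1.76% of all genes were called and 1.48% were called higher.

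The other PR-10 gene that rose has the parsley PR2 protein as its hit (TRINITY_DN38698_c0_g1) and was low, at 0.16 to 0.66 TPM in control and 0.61 to 8.90 TPM in cold, and it too passed the filter through cold alone. On the log2 scale the difference was 1.91 (SE 0.39; adjusted p by limma with Benjamini-Hochberg = 0.007), whereas summed with the other 2 genes of its hit it was 0.02. The neighbour of the Dau c 1 gene in its assembly cluster (TRINITY_DN33778_c0_g3), with the celery allergen Api g 1 as its hit, had the lowest p of all members for a difference that varied with the day. It was at 145 and 55.6 TPM on day 2, 43.1 and 72.7 TPM on day 4, and 122 and 134 TPM on day 6 in control, and at 68.8 and 57.8 TPM, 267 and 273 TPM, and 146 and 180 TPM in cold. On day 4 the cold libraries were above both controls, with a log2 difference of 2.25 (SE 0.41; adjusted p by limma with Benjamini-Hochberg = 0.014), while on day 2 the value was -0.50 (SE 0.41). The test of equal differences did not pass (adjusted p by limma with Benjamini-Hochberg = 0.28). Over the days it was not called (0.69, SE 0.24; adjusted p = 0.056), and was called without control day 2 replicate 1 (0.92, adjusted p = 0.0093).

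The most abundant PR-10 gene, also an Api g 1 hit (TRINITY_DN22784_c1_g3), showed no common direction. Its control libraries fell at 2 levels, at 361, 375 and 361 TPM in replicate 1 of day 2, replicate 1 of day 4 and replicate 3 of day 6, and at 1210, 973 and 1317 TPM in the others. In cold it ranged from 84.6 TPM, in cold day 2 replicate 3, to 1542 TPM. Cold minus control was 0.02 in log2 (SE 0.58; adjusted p by limma with Benjamini-Hochberg = 0.98). On day 4 its cold libraries (1542 and 1029 TPM) were above both controls. The 3 controls at the lower level are those with the higher second principal component. PR-4 was at 510 to 1837 TPM in them and at 225 to 437 TPM in the other controls, and the OSML13 gene at 138 to 1193 TPM and 21.8 to 106 TPM. The part of this split in the results was not tested.

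PR-1 and PR-4 had 1 gene that rose and 2 not called, or 33.3% called beside 23.3% of all genes. The PR-1 gene (TRINITY_DN19912_c1_g3), of the family used as a marker of salicylic acid responses, went from 32.7 to 51.6 TPM in control (median 41.9) to 43.8 to 70.9 TPM in cold (median 64.8). The log2 difference came to 0.55 (SE 0.18; adjusted p by limma with Benjamini-Hochberg = 0.049), and the call held in 2 of the 12 fits without 1 library and not in the blocked fit (adjusted p = 0.083). Without cold day 4 replicate 2 the adjusted p was 0.14. The PR-4 gene (TRINITY_DN25723_c1_g2) was at 1196 and 225 TPM on day 2, 510 and 227 TPM on day 4, and 437 and 1837 TPM on day 6 in control. In cold it was at 560 and 908 TPM, 2195 and 2395 TPM, and 1527 and 2061 TPM on these days. Its cold values on day 4 were above every control, those on day 2 lay among the controls, and the gene was not called (log2 difference 1.40, SE 0.47; adjusted p by limma with Benjamini-Hochberg = 0.053). It was called without control day 2 replicate 1 (1.80, adjusted p = 0.013) or control day 6 replicate 3 (1.74, adjusted p = 0.025). Another PR-1 gene (TRINITY_DN33330_c2_g3) was at 0.03 to 4.37 TPM in control and 0.88 to 9.06 TPM in cold and was not called (log2 difference 1.15, SE 0.46).

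**Figure D4:**
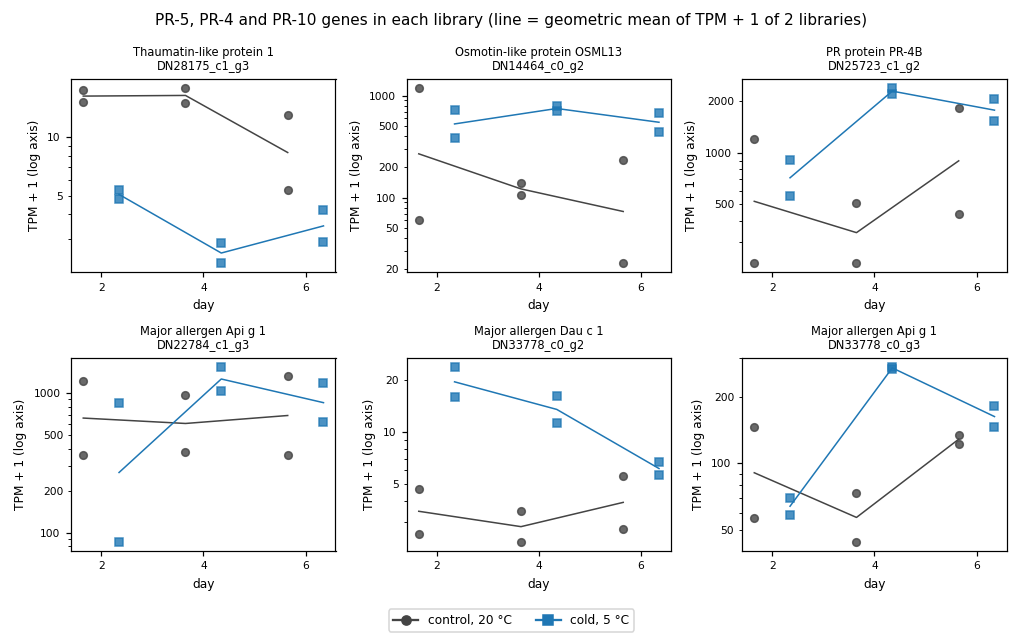
TPM + 1 on a log axis for 6 PR-5, PR-4 and PR-10 genes in each of the 12 libraries by day, with control in grey circles and cold in blue squares, set slightly apart sideways, and lines through the geometric mean of the 2 libraries. Thaumatin-like protein 1 lies lower and Dau c 1 higher in cold, the osmotin-like gene has 1 control at 1193 TPM above all cold libraries, and the arms of the Api g 1 gene at the lower left overlap, although both cold libraries are above both controls on day 4.

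Set side by side, the rye antifreeze classes and the other members had values of mostly opposite sign. In the former, 7 of 54 rose and 9 fell, with 39 negative log2 differences and a median of -0.35, beside 23431 negative of all 44600 genes. In the latter, 3 of 12 rose and none fell, with 10 positive log2 differences and a median of 0.49, beside 21169 positive of all 44600 genes. Of all genes 11.3% were called higher and 12.0% lower, so few falls were to be looked for among 12. Leaving out the pair that passed the filter through cold alone, 6 of 53 and 2 of 11 rose. The shares called were 29.6% and 25%, beside 23.3% of all genes. A difference between the 2 sets was not tested. A further 3 members, all in the antifreeze classes, passed the low filter through the control libraries alone, which favours lower values in cold. None of these 3 was called, and they stay in the counts of signs and the medians given. Within the antifreeze classes the genes that rose were Cht10, CHTB4, the 4 glucanase genes and the OSML13 gene.

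The arms did not overlap in 7 of the 66 members, beside 7.11% of all genes tested. Cold was higher in 3 of them (3.27% of all genes), CHTB4, A6 and the Dau c 1 gene. It was lower in 4 (3.84% of all genes), the Chid1-like gene, CTL1, the glucanase 4 gene and TL1. CHTB4 passed the low filter through cold alone. Leaving out the pair that did so, the arms did not overlap in 6 of 64 members. Many members varied widely between control libraries. The median SD of log2(TPM + 1) over the 6 controls was 0.67 for the members and 0.46 for all genes tested, and over the 6 cold libraries it was 0.63 and 0.54. The chitinases had a median SD of 1.04 in control and 0.58 in cold. The most variable members in control were both osmotin-like genes (SD 2.13 and 1.93) and the CH25 and CHIT1B genes (1.87 and 1.76), and that of the OSML13 gene was 0.43 in cold.

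By day, 1 member was called on day 2, 9 on day 4 and none on day 6 (limma, Benjamini-Hochberg), beside 1.76%, 8.38% and 0.484% of all genes. For day 6, where 0.318% of all genes were called higher and 0.166% lower, 13 members had an unadjusted p under 0.05 (17.5% of all genes did), and the lowest adjusted p was 0.098. On day 4, 6 members were higher and 3 lower, beside 4.07% and 4.3% of all genes, and 22 had an unadjusted p under 0.05 (27.6% of all genes did). The higher ones were CHIT1B, CHTB4, the glucanase 8 gene TRINITY_DN27498_c0_g4, and the PR-10 genes TRINITY_DN33778_c0_g3, TRINITY_DN33778_c0_g2 and TRINITY_DN38698_c0_g1. Of these, CHTB4 and TRINITY_DN38698_c0_g1 passed the low filter through the cold libraries alone. The lower ones were both glucanase 3 genes and TL1. No member was called on day 4 without any 1 of that day's 4 libraries, and the Dau c 1 call of day 2 was lost without 5 of the 12 libraries. Since the share of genes called differed between days for the whole table too, these counts do not order the days for the members.

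No member passed the test that the 3 daily differences differ (8 had an unadjusted p under 0.05, beside 9.49% of all genes), and 0.0157% of all genes did. None passed for change over the days in control, nor did any gene of the table. In that test 11 of the 66 members had an unadjusted p under 0.05, a larger share than the 3.67% of all genes. In cold, 1 member passed, beside 0.601% of all genes (limma, Benjamini-Hochberg). It was the thaumatin-like gene TRINITY_DN19971_c0_g2, at 11.8 and 15.0 TPM on day 2, 4.35 and 6.48 TPM on day 4, and 2.67 and 1.14 TPM on day 6 (adjusted p by limma with Benjamini-Hochberg = 0.044). In control it also declined in value, with 11.6 and 10.3 TPM on day 2, 8.24 and 8.97 TPM on day 4, and 3.14 and 3.13 TPM on day 6, and the test there did not pass.

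As summed TPM, the 66 members made up 2345 to 4485 TPM in the control libraries and 2896 to 6529 TPM in the cold libraries, and the ranges overlap. The 15 chitinases summed to 466 to 709 TPM in control and 429 to 793 TPM in cold, and the 30 glucanases to 367 to 562 and 428 to 662 TPM. PR-5 summed to 178 to 1454 TPM in control and 506 to 893 TPM in cold, with the OSML13 gene making up 77.2% of its mean, and PR-10 to 596 to 1634 and 278 to 2020 TPM. PR-1 and PR-4 summed to 261 to 1893 TPM in control and 634 to 2468 TPM in cold, and the PR-4 gene made up 95.6% of their mean. The most abundant gene made up 74.1% of the mean in PR-10, but only 22.5% in the chitinases and 13.7% in the glucanases.

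**Figure D5:**
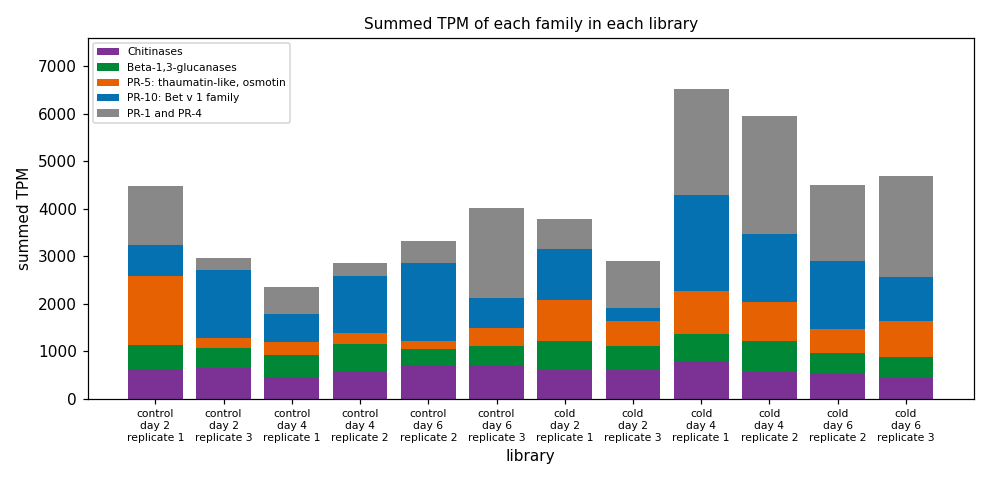
Summed TPM of each family in each of the 12 libraries, as stacked bars from 0. Both cold day 4 libraries have the highest totals, 6529 and 5944 TPM, with PR-1 and PR-4 at 2242 and 2468 TPM, and the large PR-5 share of control day 2 replicate 1 (1454 TPM) is mostly the osmotin-like gene OSML13.

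Genes that act upstream of PR proteins, or beside them, were taken from word lists. Of 15 genes for LysM proteins, a family that includes the receptors for chitin, 2 rose (13.3%, beside 11.3% of all genes), 5 fell (33.3%, beside 12.0%) and 8 were not called. LYM2 (TRINITY_DN27387_c2_g1), which in Arabidopsis binds chitin at the cell surface, went from 49.1 to 107 TPM in control to 136 to 286 TPM in cold, with no overlap (log2 difference 1.34, SE 0.27; adjusted p by limma with Benjamini-Hochberg = 0.0066). LYK4 (TRINITY_DN28663_c2_g1), a partner of the chitin receptor in Arabidopsis, went from 3.98 to 11.2 TPM to 0.68 to 2.56 TPM (log2 difference -1.54, SE 0.31; adjusted p by limma with Benjamini-Hochberg = 0.0075). A second LYK4 gene (TRINITY_DN18079_c0_g1) was at 7.87 to 10.8 TPM in control and 4.94 to 10.5 TPM in cold and was not called (-0.14, SE 0.19). Of 31 genes of salicylic acid signalling, 4 rose, none fell and 27 were not called, with a median log2 difference of 0.23, and the 12.9% that rose lie near the 11.3% of all genes. All 4 encode TGA factors, the DNA-binding partners of the salicylic acid receptor NPR1, and the largest rise was that of TGA2.2 (TRINITY_DN15627_c0_g1), at 1.19 (SE 0.26; adjusted p by limma with Benjamini-Hochberg = 0.0092). The other TGA genes of the list were not called, namely both TGA1 genes (0.66, SE 0.34, and -0.27, SE 0.24) and TGAL7 (-0.59, SE 0.66). Of 20 genes of other defence families (defensins, lipid-transfer proteins, germin-like proteins, snakins and proteinase inhibitors), none rose and 2 fell (10% beside 12.0% of all genes), and neither of 2 genes for polygalacturonase inhibitors, a family with an antifreeze protein in carrot, was called.

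Markers of other cell types were looked at beside these results. None of 9 genes taken by word as xylem markers was called, and their summed level was 69.8 to 153 TPM in control and 67.6 to 216 TPM in cold. Apart from the IRX15 genes these were laccases, with Laccase-15 and Laccase-7 the most abundant. The sum is thus mainly that of laccases and need not follow xylem. No marker of the 3 lists was at 0 in all libraries. Of 14 epidermis and cuticle markers 3 rose (21.4%, beside 11.3% of all genes) and 1 fell (7.14%, beside 12.0%), with sums of 258 to 539 TPM and 238 to 358 TPM. The 3 that rose were genes for 3-ketoacyl-CoA synthases (KCS4, KCS7 and KCS15), and the other genes for these synthases were not called. The 1 that fell was a CER1 gene, and the other CER1 genes were not called. Of 3 embryo and seed genes none was called, with sums of 46.5 to 215 TPM and 51.2 to 100.8 TPM. The gene OBAP2A of the embryo list was not tested, because it reached 1 TPM in only 1 library, a cold one, at 11.97 TPM, and it was listed at 0 in all controls. The part of these markers in the results on PR genes was not tested.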

How the data were processed

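The authors deposited 1 table of expression for 12 libraries, and its values are TPM, a unit inferred here from their range and sums because the header names none. Columns sum to less than the full TPM total, so, if the unit is TPM, some genes are missing from the table. The submitters' processing notes list cutadapt, FastQC, Salmon and edgeR, without roles or versions. Gene identifiers come from a Trinity assembly, per the file headers. Genome positions and read counts were not used here.

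Values were taken as log2(TPM + 1), which understates the change of low genes. A gene was tested where 2 or more libraries reached 1 TPM (44600 of 44953). All 6 groups entered 1 limma model (limma 3.58.1, R 4.3.3) with a mean-variance trend, and p-values were adjusted by Benjamini-Hochberg over every gene tested, at 0.05. The plan covered counts or TPM, and the branch for TPM was followed. Members and lists were chosen with earlier results of these data known. The parsley PR2 hits went to PR-10 for their Bet v 1 domain. After the table was seen, the word thionin in the list of other defence families was matched as a whole word, because it otherwise took methionine enzymes.

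Members with full values were named by rule: the most abundant of each family, the 2 largest rises and falls called per family with at least 5 TPM in the higher arm, the 3 lowest p for the day by temperature test, and Cht10 and TL1. From each context list the rule took the largest rise and fall. Other members were named to complete a hit, a cluster or a count, after their values were seen. The code of the fit was run on simulated data with independent normal noise for each gene. No simulated library stood apart, so that run does not show how the fit behaves with such libraries. Libraries with the same replicate number did not deviate together, so the numbers were not taken as pairs. Alternatives were another pseudocount, filter, scaling, trend and weights, a replicate block, sums by hit, each day alone and leaving out libraries. Leaving out both cold libraries that stood apart was chosen after seeing the data. Python 3.11.15 with matplotlib 3.10.9 drew the figures.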

Additional observations from a re-analysis of the deposited data

Results flagged for a closer look

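In 42 sets of 6 libraries (21 named genes in each arm), 2 had a library far from the others. A rate of about 1 in 20 from chance assumes independent, normally spread values. Skewed TPM values and genes of the same libraries need not behave so, and whether 2 of 42 exceeds chance cannot be told. The flag used TPM values and not the log2 scale of the tests. Both were control day 2 replicate 1. It held 1193 TPM of the osmotin-like gene OSML13 (TRINITY_DN14464_c0_g2), where the next highest control held 234 TPM, and 25.4 TPM of the TL1 gene TRINITY_DN24519_c0_g1, where the next highest control held 7.5 TPM. The 6 libraries of an arm span 3 days.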

How the results depend on the processing

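The counts of members called for the mean of the 3 days stayed within 1.5 times of 19, 10 higher and 9 lower under every alternative run except the fits without 1 library, where they ranged from 12 to 22 in all, from 6 to 12 higher and from 5 to 11 lower. Of the 19 called members, 10 were called whichever of the 12 libraries was removed. In such a fit the lone library of a group is assumed to vary like the others. On day 2 the single call became 0 with a pseudocount of 0.1, with a filter of 5 TPM in 6 libraries, with array weights, without the 2 cold libraries that stood apart and with the 4 libraries of the day alone, and was 0 to 1 without 1 library. On day 4 the count of 9 became 5 with the stricter filter, 19 with array weights, 3 with genes summed over each Swiss-Prot hit and 4 with the 4 libraries of the day alone, and ranged from 0 to 13 without 1 library. The cause of these shifts was not tested. Among the 21 genes named by rule the sign changed in 4, none of them called. Outside these, the called glucanase 8 gene TRINITY_DN15954_c0_g1 (-1.13) stood at 0.96 in the sum of its hit. The CH25 gene (-0.04) stood at 0.0062 after median ratio scaling, at 0.019 after quantile normalization and at -0.78 to 0.70 without 1 library. CHIT1B was at -0.099 to 1.13 without 1 library and at -0.13 without the 2 cold libraries that stood apart, an alternative chosen after seeing the data. The abundant Api g 1 gene was at -0.53 to 0.57 without 1 library, and TL1 (TRINITY_DN24519_c0_g1) at -0.57 when summed with others of its hit. The replicate numbers showed no pairing (correlation of same-numbered deviations -0.19, 0.0074 and -0.012 on day 2, 4 and 6). With the number as a replicate block, 16 members were called for the mean, 0 on day 2 and 7 on day 4. Depth is unknown, so low genes carry an unknown counting error.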
